A study of Mus musculus with 6 samples.

Results

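Of 37 listed genes of the tRNA synthetases and the amino acid response, 36 were measured in splenic T cell preparations of mice lacking miR-142 and of wild-type mice. The members were chosen by name: 19 of 20 cytosolic aminoacyl-tRNA synthetases (Dars was not analysed here), 5 enzymes of asparagine, serine and glycine synthesis, 5 amino acid transporters and 7 genes of ATF4, ATF5 and their stress outputs. They are 36 of the 18193 genes with a probe set, a group of short probes for the same transcript on the array. T cells were isolated by negative selection from the spleens of individual male C57BL/6 mice aged 10 weeks. There were 3 mice with the genotype miR-142 KO (called KO) and 3 WT mice. The allele that removes the microRNA, and whether the mice were littermates, were not given in the sources used here. Levels are log2 intensities of Affymetrix arrays as deposited, so a difference of 1 is a doubling, and each gene is read from its probe set with the highest mean of the 6 arrays.

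Aminoacyl-tRNA synthetases attach each amino acid to its tRNA, and several of them sit together in a multisynthetase complex. When amino acids run short, uncharged tRNA activates the kinase GCN2, which phosphorylates the initiation factor eIF2. This slows general translation and favours translation of the mRNA of ATF4, a transcription factor that turns on genes for amino acid synthesis, amino acid import and tRNA charging. In T cells, amino acid import and serine synthesis are known to increase on activation. Because ATF4 is controlled largely at translation, its transcript level need not follow its activity.

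The microRNA that the KO mice lack has a mature product from each arm of its hairpin. Both are shown because they define the genotype compared, as RefSeq gives them for GRCm38.p6, 5′ to 3′, with the seed (bases 2 to 8) in capitals.
mmu-miR-142a-5p, chr11:87756867-87756887 (+ strand): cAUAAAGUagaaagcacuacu
mmu-miR-142a-3p, chr11:87756903-87756925 (+ strand): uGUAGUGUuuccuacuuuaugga
The mature microRNA was not measured on these arrays. The transcript listed as Mir142 read 7.93, 8.13 and 7.67 in WT and 5.97, 5.88 and 5.90 in KO. It fell by 1.99 ± 0.13 (SE, n = 3 per group, limma adjusted p = 6.6e-05), and where its probes lie relative to the deleted part was not given in the sources used here.

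A DNA element known as the C/EBP-ATF response element, to which ATF4 binds with partners, was searched in the promoters of these genes. The letters searched were TGATGNAAN on both strands, in a window from 250 bases before to 50 bases after the transcript start. Of the 36 members 27 matched a promoter in RefSeq (GRCm38.p6), and 9 of these 27 (33.3%) held the letters, against 4.50% of all 27025 genes with a promoter. The 9 were 6 of 16 members that rose (Aars, Gars, Iars, Tars, Yars and Asns), 1 of 4 that fell (Trib3) and 2 of 7 with no call (Chac1 and Slc7a11). The members were chosen by name and include genes known as ATF4 outputs, so their higher share can follow from that choice. It says nothing about the KO mice. A match is a description of these letters only. In 6 genes a match lay before the start, and these stretches are shown 5′ to 3′ on the strand of the gene, with flanking bases that end at or before the start and the matching letters in capitals.
Asns, chr6:7693210-7693292 (- strand): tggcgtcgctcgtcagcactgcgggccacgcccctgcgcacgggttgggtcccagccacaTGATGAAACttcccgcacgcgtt
Aars, chr8:111033669-111033767 (+ strand): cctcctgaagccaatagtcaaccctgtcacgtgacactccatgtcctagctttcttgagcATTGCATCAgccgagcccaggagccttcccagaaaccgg
Gars, chr6:55037910-55038000 (+ strand): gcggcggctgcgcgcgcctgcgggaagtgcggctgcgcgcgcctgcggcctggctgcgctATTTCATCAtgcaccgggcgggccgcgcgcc
Tars, chr15:11399659-11399734 (- strand): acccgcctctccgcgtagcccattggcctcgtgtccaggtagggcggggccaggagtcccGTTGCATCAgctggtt
Chac1, chr2:119350992-119351086 (+ strand): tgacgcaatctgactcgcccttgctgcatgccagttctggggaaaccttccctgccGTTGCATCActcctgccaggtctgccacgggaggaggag
Slc7a11, chr3:50443641-50443739 (- strand): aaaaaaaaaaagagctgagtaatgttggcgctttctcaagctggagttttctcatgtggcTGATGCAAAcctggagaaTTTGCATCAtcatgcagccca
In Asns the match began 23 bases before the start, in Tars 16, in Gars 31, in Slc7a11 66 and 48, in Aars 113 and in Chac1 194. The matches of Iars, Yars and Trib3, and a further match of Aars, lay after the start.

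The arrays differed broadly between the genotypes. Array medians ran from 5.70 to 5.77. Over all probe sets the correlation of 2 arrays was 0.994 to 0.996 within WT, 0.986 to 0.995 within KO and 0.940 to 0.965 for a WT with a KO array; probe sets are no replicates. All 11 measured T cell markers of 15 listed fell, beside 18.6% of all genes. Their mean level went from 12.32 ± 0.01 (SD, n = 3) in WT to 10.37 ± 0.72 in KO. The lowest KO mean of a single T cell marker was 9.20, that of Zap70. Most markers of myeloid and erythroid cells were higher in KO, beside 18.6% of all genes that rose. Of 12 neutrophil markers 10 rose (array means 5.94 to 7.04 in WT and 9.82 to 12.41 in KO), as did all 9 measured markers of mast cells, basophils and eosinophils (6.33 to 6.48 and 10.49 to 11.06). Of 10 monocyte and macrophage markers 7 rose (5.43 to 6.02 and 7.93 to 8.85), and of 8 erythroid markers 7 (6.82 to 7.27 and 9.34 to 10.34). B cell markers were not raised as a set: 1 of 9 rose, and their array means overlapped (5.99 to 6.41 and 6.33 to 7.76). No marker is at 0, since these log2 values have no zero. WT replicate 1 had the highest neutrophil mean of the WT arrays, and the mean of the T cell markers in KO replicate 2 was 9.55, below the 10.69 and 10.88 of the other KO arrays. Signs of RNA quality also moved with genotype. For the Actb control the gap between 3′ and 5′ probe sets (3′ minus 5′, log2) was 0.16 to 0.23 in WT and 0.32 to 0.40 in KO, and that of Gapdh was -0.18 to -0.15 in WT and -0.10 to 0.18 in KO. The 18S controls lay at 9.47 to 9.66 in WT and at 7.86, 9.15 and 9.19 in KO, with no overlap in any of these 3 measures. In such bulk RNA, fewer cells of a type and less RNA per cell cannot be told apart. These changes run with every difference below between the genotypes, and their part in them was not tested.

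Most of the 36 members were higher in KO. Of these 21 rose, with limma adjusted p below 0.05 over all probe sets, 4 fell and 11 were not called. Among all 18193 genes 18.6% rose and 18.6% fell. The members' median difference, KO minus WT, was 0.37 on the log2 scale, beside -0.06 over all genes. In 26 members all 3 KO arrays were above all 3 WT arrays, and in 5 all were below, where the same held for 24.1% and 29.7% of all genes (53.8% did not overlap, either way). The rises ran from 1.25-fold to 4.25-fold with a median of 1.46-fold, so that 10 of 21 reached 1.5-fold and 3 of 21 (Asns, Psat1 and Slc7a5) reached 2-fold. Leaving out each array in turn gave 15 to 20 rises and 2 to 4 falls, the 2 falls when WT replicate 2 was left out. With 2 arrays a genotype, after dropping WT replicate 1 together with KO replicate 1 (chosen after seeing the data), 13 members rose and 0 fell by limma. The arrays were also scaled to their hybridization controls, transcripts added in fixed amounts at hybridization. These were read from deposited values that RMA had already equalised, so the scaling does not measure the RNA content of the samples. The median of all probe sets then moved from -0.08 to 0.29. Under this scaling 29 members rose and 0 fell (median difference 0.74), where 42.8% of all genes rose and 7.22% fell. These shares stand behind each count below under that scaling.

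**Figure D1:**
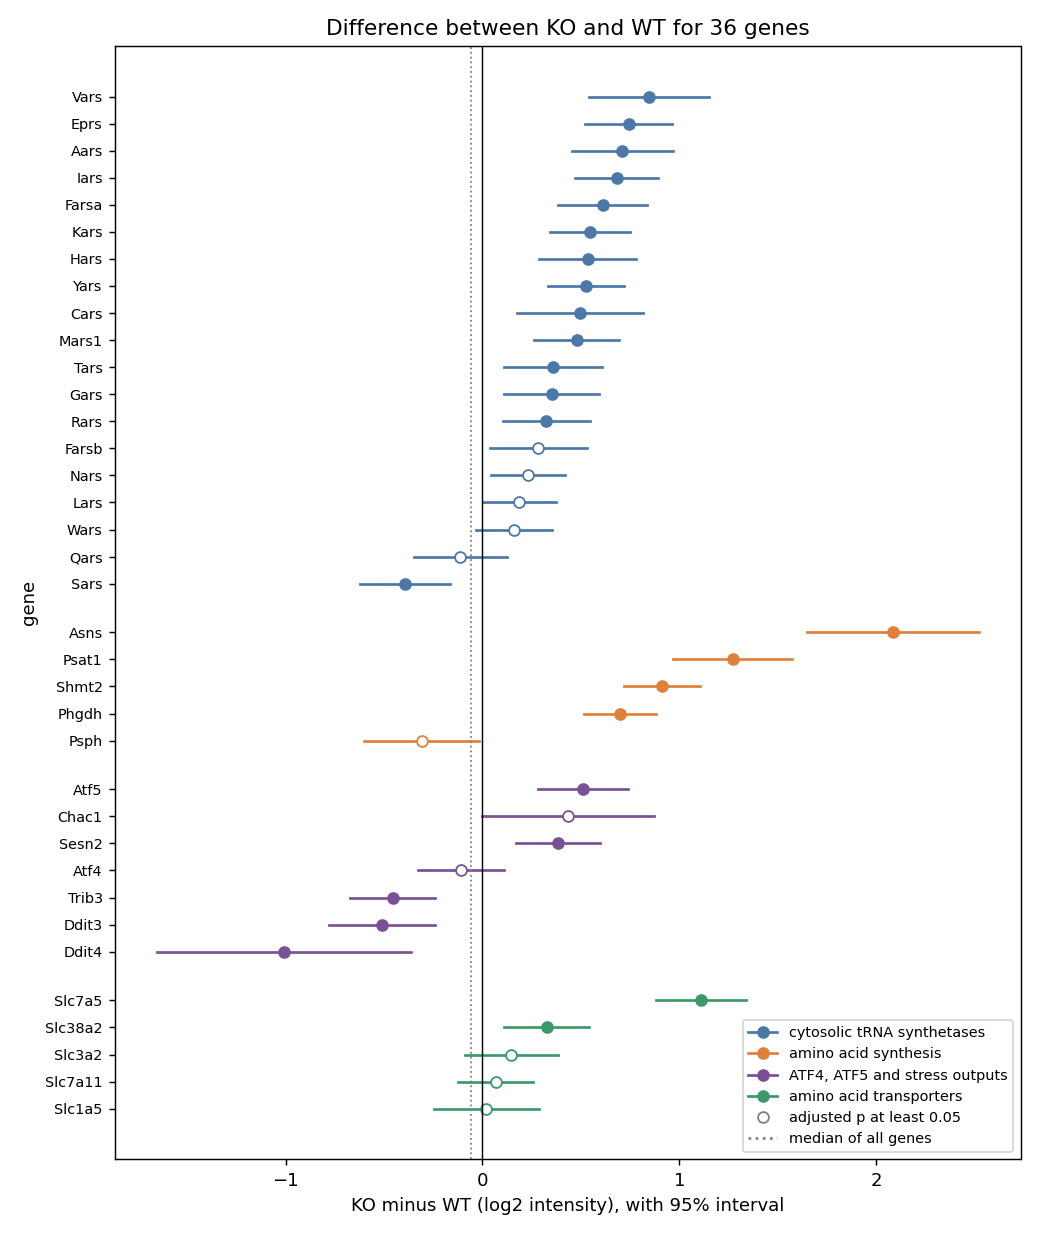
Difference KO minus WT on the log2 intensity scale (x axis) for each of 36 genes (y axis), with 95% intervals of the limma fit that are not adjusted for multiple tests; colours mark the 4 roles, open circles the 11 genes with no call and the dotted line the median of all genes. Asns lies farthest to the right at 2.09 and Ddit4 farthest to the left at -1.01; under scaling to the hybridization controls every point lies farther right and the 4 falls lose their call.

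The enzymes of amino acid synthesis held the largest rise, that of Asns, and the second, that of Psat1. Of 5 genes Asns, Psat1, Shmt2 and Phgdh rose and none fell by limma, beside 18.6% of all genes each way. The median difference was 0.91, and 1 gene, Psph, was lower at an unadjusted p below 0.05. The 4 calls were kept under each of the 17 alternatives tried. Asns, the asparagine synthetase and a textbook target of ATF4, read 8.27, 8.10 and 8.46 in WT replicates 1, 2 and 3 and 10.17, 10.77 and 10.15 in KO replicates 1, 2 and 3. Every KO array lay far above every WT array, and KO replicate 2 was the highest. The gene rose by 2.09 ± 0.19 (SE, n = 3 per group), which is 4.25-fold (limma adjusted p = 0.00024). The stretch of its promoter above holds the matching letters. The brightest probe sets of Asns, Phgdh and Shmt2 carry a suffix for possible cross-hybridisation, and the second Asns probe set, without such a suffix, rose by 1.82.

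Serine is made from a glycolytic intermediate by Phgdh, Psat1 and Psph in turn. Phgdh, the first enzyme, read 11.34, 11.30 and 11.40 in the WT arrays and 12.07, 12.01 and 12.05 in the KO arrays. The groups were narrow and apart, and Phgdh rose 1.62-fold, by 0.70 ± 0.08 (SE, n = 3 per group, limma adjusted p = 0.00066). Its 3 other probe sets rose too, by 0.44 to 0.63. They also carry the suffix for possible cross-hybridisation, so no Phgdh probe set is free of it. Psat1, the aminotransferase of the second step, read 9.70, 9.73 and 9.91 in WT and 10.80, 11.21 and 11.14 in KO. Again no values overlapped, and KO replicate 1 was the lowest KO array. Psat1 rose 2.41-fold, by 1.27 ± 0.13 (limma adjusted p = 0.00042), and its other probe set by 1.19. Psph is the phosphatase that releases serine. Its values were 10.17, 10.28 and 10.57 in WT and 9.90, 10.07 and 10.12 in KO, so that the KO arrays were lower without overlap, but the difference of -0.31 ± 0.12 was not called (limma adjusted p = 0.11, 95% interval -0.60 to -0.02, not adjusted for multiple tests). It was 0.057 under scaling to the hybridization controls. Shmt2, the mitochondrial enzyme that turns serine into glycine and a one-carbon unit, read 9.96, 9.95 and 10.00 in WT and 10.90, 10.94 and 10.79 in KO. The spread within each genotype was small beside the gap, and Shmt2 rose 1.88-fold, by 0.91 ± 0.08 (limma adjusted p = 0.00025), with 3 other probe sets that rose by 0.36 to 0.78.

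**Figure D2:**
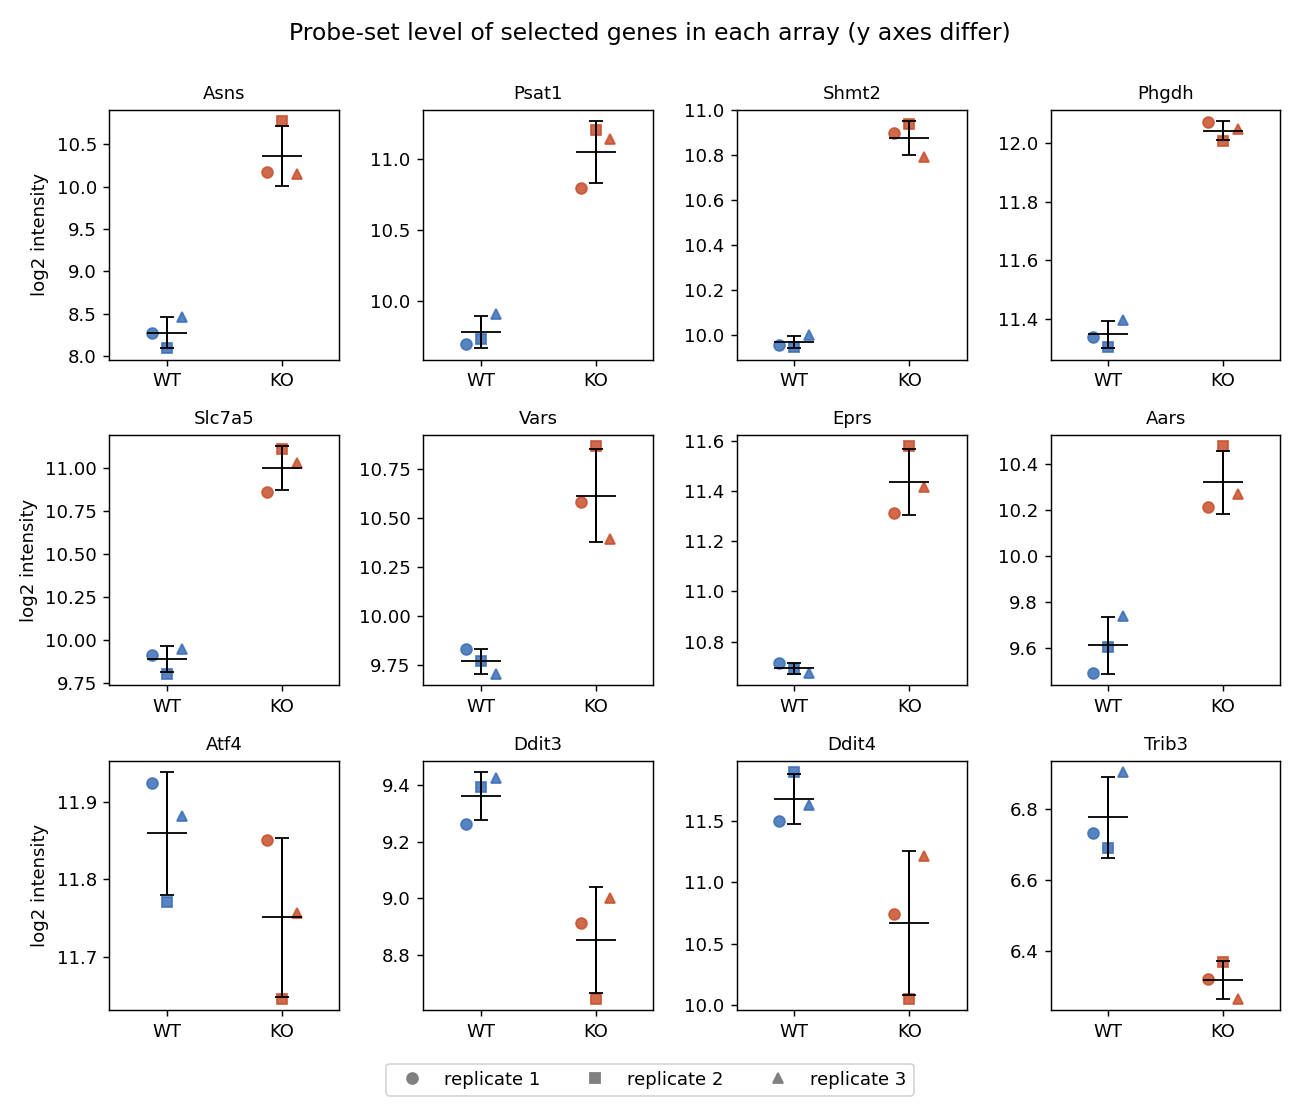
Log2 intensity (y axis, a different range in each panel) of 12 genes in the 3 WT and 3 KO arrays (x axis); symbols mark the replicate numbers, the horizontal bar the mean and the whiskers 1 SD. All KO values lie above all WT values for Asns, Psat1, Shmt2, Phgdh, Slc7a5, Vars, Eprs and Aars, the groups overlap for Atf4, and all KO values lie below for Ddit3, Ddit4 and Trib3, whose falls are no longer called under scaling to the hybridization controls.

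Of the 19 cytosolic synthetases 13 rose and 1 fell, beside 18.6% of all genes each way, with a median difference of 0.48. In 17 of the 19 all KO arrays were above all WT arrays, where the same held for 24.1% of all genes. The differences ran from -0.39 to 0.85. Under scaling to the hybridization controls 17 rose and 0 fell, beside 42.8% and 7.22% of all genes. Vars, which charges tRNA with valine, read 9.83, 9.77 and 9.71 in WT and 10.58, 10.87 and 10.40 in KO, and rose 1.8-fold, by 0.85 ± 0.13 (SE, n = 3 per group, limma adjusted p = 0.0025). Its KO arrays were more spread than its WT arrays, with KO replicate 2 the highest. Eprs, which joins the glutamyl and prolyl enzymes in a single protein, read 10.72, 10.69 and 10.67 in WT and 11.31, 11.58 and 11.42 in KO. The KO arrays were clearly higher, and Eprs rose 1.67-fold, by 0.74 ± 0.09 (limma adjusted p = 0.0011). Of its 3 other probe sets 2 rose by 0.67 and 0.68, and a dim 1 differed by -0.10 (limma adjusted p = 0.69). Aars, the alanyl enzyme, read 9.49, 9.60 and 9.74 in WT and 10.22, 10.48 and 10.27 in KO. No values overlapped, and Aars rose 1.64-fold, by 0.71 ± 0.11 (limma adjusted p = 0.0026). Iars, the isoleucyl enzyme, read 10.69, 10.81 and 10.69 in WT and 11.31, 11.50 and 11.42 in KO and rose 1.6-fold, by 0.68 ± 0.09 (limma adjusted p = 0.0013). Each of these 4 rises was kept under all 17 alternatives. The brightest probe sets of Aars and Iars carry the suffix for possible cross-hybridisation, as do those of Farsb, Qars, Sars and Wars. The other probe sets of Aars and Iars, without this suffix, rose by 0.85 and 0.87.

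Smaller rises were seen for Kars (lysyl, 0.55 ± 0.09), Hars (histidyl, 0.53 ± 0.10), Yars (tyrosyl, 0.53 ± 0.08) and Mars1 (methionyl, 0.48 ± 0.09), with limma adjusted p from 0.0027 to 0.0077. The alpha chain of the phenylalanyl enzyme, Farsa, rose by 0.61 ± 0.10 (limma adjusted p = 0.0028), but the mean of its 4 probe sets differed by 0.07 (limma adjusted p = 0.59), since its 3 dimmer probe sets were not called. The beta chain, Farsb, read 11.13, 11.03 and 11.23 in WT and 11.34, 11.58 and 11.33 in KO. These values did not overlap, yet the difference of 0.28 ± 0.11 was not called (limma adjusted p = 0.086). A dimmer probe set of Farsb fell by 0.95, and the mean of its probe sets turned to -0.047. Cars (cysteinyl, 0.50 ± 0.14), Tars (threonyl, 0.36 ± 0.11), Gars (glycyl, 0.35 ± 0.10) and Rars (arginyl, 0.32 ± 0.09) rose closest to the threshold, with limma adjusted p from 0.031 to 0.041. The other probe set of Cars differed by -0.15 (limma adjusted p = 0.40), and averaging both gave 0.17 (limma adjusted p = 0.23). These 4 calls depended on single arrays. With any of WT replicates 1 and 2 and KO replicates 2 and 3 left out none of the 4 was called, and with WT replicate 3 left out only Gars was. Leaving out WT replicate 1 or 2 or KO replicate 2 or 3 gave 9 rises among the synthetases each time.

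Not all synthetases rose. Sars, the seryl enzyme, went the other way, with 10.58, 10.62 and 10.83 in WT and 10.33, 10.29 and 10.23 in KO. Every KO array was below every WT array, and Sars fell by 0.39 ± 0.10 (SE, n = 3 per group), which is 1.31-fold (limma adjusted p = 0.02). Its other probe set fell by 0.40. The call of Sars was lost without KO replicate 3 (limma adjusted p = 0.066) and under scaling to the hybridization controls, where the difference was -0.03. Qars, the glutaminyl enzyme, read 11.64, 11.75 and 11.81 in WT and 11.66, 11.72 and 11.47 in KO, with overlap. Its difference of -0.11 ± 0.10 was not called (limma adjusted p = 0.45, 95% interval -0.35 to 0.12), and it was 0.25 under scaling to the hybridization controls. Nars (asparaginyl, 0.23 ± 0.08, limma adjusted p = 0.071), Lars (leucyl, 0.19 ± 0.08, limma adjusted p = 0.12) and Wars (tryptophanyl, 0.16 ± 0.08, limma adjusted p = 0.19) were not called, though in each the 3 KO values were above the 3 WT values. A further probe set of Nars rose by 0.41, and 2 of 3 further probe sets of Wars rose by 0.37 and 0.39.

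**Figure D3:**
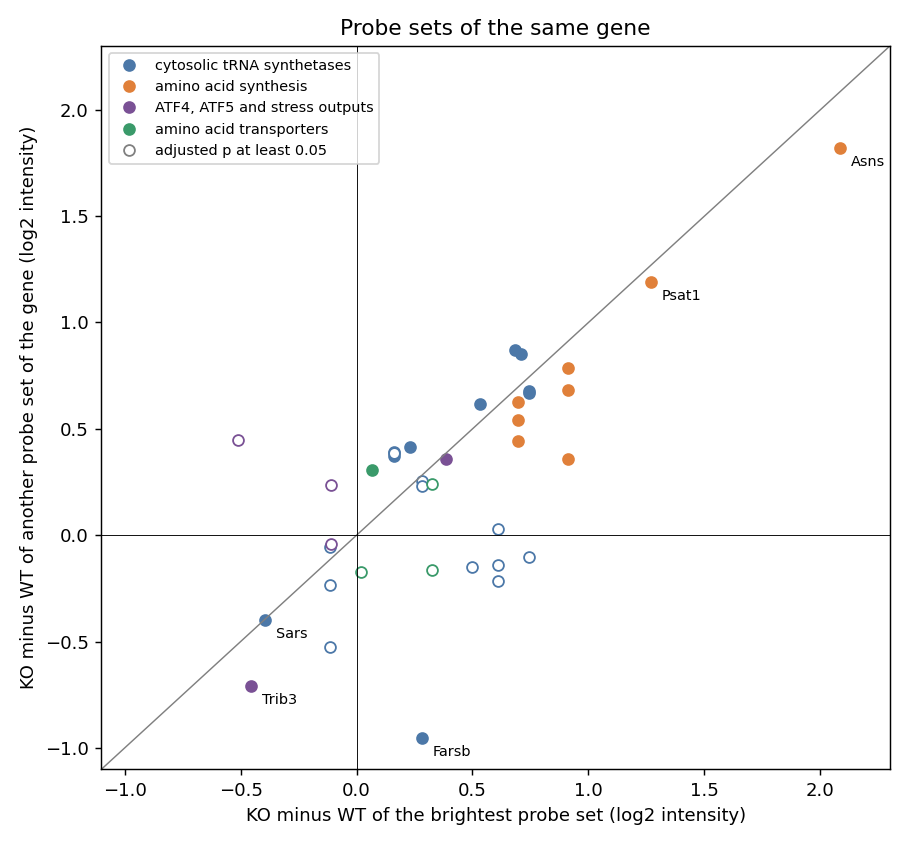
Difference KO minus WT on the log2 intensity scale of the brightest probe set of a gene (x axis) against that of each further probe set of the same gene (y axis), for 38 further probe sets of 22 genes; the grey line marks equal values and open circles have no call. The 18 further probe sets that rose and 3 that fell (13.9% and 15.5% of all probe sets) include none called against a call of the brightest probe set, and the Farsb point at -0.95 belongs to a gene whose brightest probe set was not called.

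Among the amino acid transporters Slc7a5 and Slc38a2 rose and none fell by limma, beside 18.6% of all genes each way. The other 3 were not called (0 were lower at an unadjusted p below 0.05), and the median difference was 0.15. All 5 rose under scaling to the hybridization controls, where 42.8% of all genes did. Slc7a5 is the chain of the LAT1 exchanger that carries large neutral amino acids such as leucine. It read 9.91, 9.80 and 9.95 in WT and 10.86, 11.11 and 11.03 in KO. The 3 KO arrays were all higher, and Slc7a5 rose 2.16-fold, by 1.11 ± 0.10 (SE, n = 3 per group, limma adjusted p = 0.00023), a call kept under all 17 alternatives. Its partner chain Slc3a2 (CD98) read 10.69, 10.51 and 10.43 in WT and 10.77, 10.62 and 10.68 in KO. These values overlapped, and the difference of 0.15 ± 0.10 was not called (limma adjusted p = 0.32, 95% interval -0.09 to 0.38). The difference between the 2 chains was not tested. Slc38a2 (SNAT2), which imports small neutral amino acids, read 11.33, 11.15 and 11.14 in WT and 11.57, 11.46 and 11.57 in KO and rose by 0.33 ± 0.09 (limma adjusted p = 0.033). That call ended when any of WT replicates 2 and 3 and KO replicates 1 and 3 was dropped, and the mean of its probe sets differed by 0.13 (limma adjusted p = 0.51). Slc1a5 (ASCT2), a glutamine carrier, differed by 0.02 ± 0.11 (limma adjusted p = 0.92, 95% interval -0.25 to 0.28). Slc7a11, the cystine exchanger chain, lay at 3.83 in WT and 3.90 in KO, brighter than 12.0% of probe sets, where a change can be compressed by background. Its other probe set, dimmer still, rose by 0.31 (limma adjusted p = 0.039).

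ATF4 and the stress outputs moved in both directions. Of 7 genes 2 rose and 3 fell, beside 18.6% of all genes each way, with a median difference of -0.11. This median was 0.26 under scaling to the hybridization controls, where 3 rose and 0 fell. It was 0.03 with the mean of each gene's probe sets. Atf4 itself read 11.92, 11.77 and 11.88 in WT and 11.85, 11.65 and 11.76 in KO. The groups overlapped, and its difference of -0.11 ± 0.09 was not called (limma adjusted p = 0.43, 95% interval -0.33 to 0.11). Its other probe sets differed by 0.23 and, far dimmer, by -0.04 (limma adjusted p = 0.31 and 0.78), and the brightest by 0.26 under scaling to the hybridization controls. Atf5, a relative of ATF4 that is also controlled at translation, read 6.96, 7.23 and 7.02 in WT and 7.56, 7.58 and 7.59 in KO. All KO arrays were higher, and Atf5 rose 1.42-fold, by 0.51 ± 0.10 (SE, n = 3 per group, limma adjusted p = 0.0066). Sesn2, a leucine sensor that restrains mTORC1, rose by 0.38 ± 0.09 (limma adjusted p = 0.017), and its other probe set by 0.36. Dropping WT replicate 1 or 2 or KO replicate 3 each ended the Sesn2 call. Chac1, which degrades glutathione, read 5.79, 5.83 and 5.19 in WT and 6.18, 5.84 and 6.10 in KO. WT replicate 3 was far below the other WT arrays, and the difference of 0.44 ± 0.19 was not called (limma adjusted p = 0.13).

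Ddit3, Trib3 and Ddit4 fell. Ddit3 (CHOP), a transcription factor of prolonged stress, read 9.26, 9.39 and 9.43 in WT and 8.91, 8.64 and 9.0 in KO. No values overlapped, and Ddit3 fell by 0.51 ± 0.12 (SE, n = 3 per group, limma adjusted p = 0.014). A dimmer probe set of Ddit3 differed by 0.45 (limma adjusted p = 0.34), so that the mean of its probe sets differed by -0.03. Trib3, a pseudokinase that binds AKT and ATF4, read 6.73, 6.69 and 6.90 in WT and 6.32, 6.37 and 6.27 in KO. The KO arrays were all lower, and Trib3 fell by 0.46 ± 0.09 (limma adjusted p = 0.0087), with another probe set that fell by 0.71. Ddit4 (REDD1), an inhibitor of mTORC1 that glucocorticoids and low oxygen also raise, read 11.50, 11.90 and 11.63 in WT and 10.74, 10.05 and 11.21 in KO. The KO arrays were widely spread, with KO replicate 2 the lowest, as for the T cell markers. Ddit4 fell 2.01-fold, by 1.01 ± 0.28 (limma adjusted p = 0.03), but dropping KO replicate 1 or any of the 3 WT arrays ended this call. The Ddit3 call was lost without WT replicate 2. Under scaling to the hybridization controls none of these 3 falls was called, with differences of -0.14 for Ddit3, -0.09 for Trib3 and -0.64 for Ddit4. Without WT replicate 2 the counts of this group were 1 rise and 1 fall, and without WT replicate 1 or KO replicate 3 also 1 rise.

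The KO arrays differed in how high these genes were. KO replicate 2 was the highest KO array for 15 of 19 synthetases and for 15 of the 21 members that rose, where it was the highest for 44.8% of all genes. The mean over the 19 synthetases was 10.15, 10.22 and 10.25 in the WT arrays and 10.53, 10.69 and 10.59 in the KO arrays. Over the 5 synthesis enzymes it was 9.89, 9.87 and 10.07 in WT and 10.77, 11.00 and 10.85 in KO. In both groups KO replicate 2 stood highest and KO replicate 1 lowest among the KO arrays. In KO replicate 2 the T cell markers averaged least, while the erythroid markers averaged most, 10.34 against 9.79 and 9.34. The B cell markers also averaged most there, 7.76 against 6.89 and 6.33, but they were not alike. Ebf1 read 11.22 there against 5.91 and 5.64, and Cd79a, Cd79b, Pax5, Blnk and Cd22 were also highest. Ms4a1, Fcer2a and Cr2 were lowest in KO replicate 2. Neutrophil markers, in contrast, were highest in KO replicate 1, at 12.41 against 9.82 and 10.39. Their part in the members' values was not tested. Without KO replicate 2 the difference of Asns was 1.88, of Psat1 1.19 and of Slc7a5 1.05, and 9 synthetases rose.

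**Figure D4:**
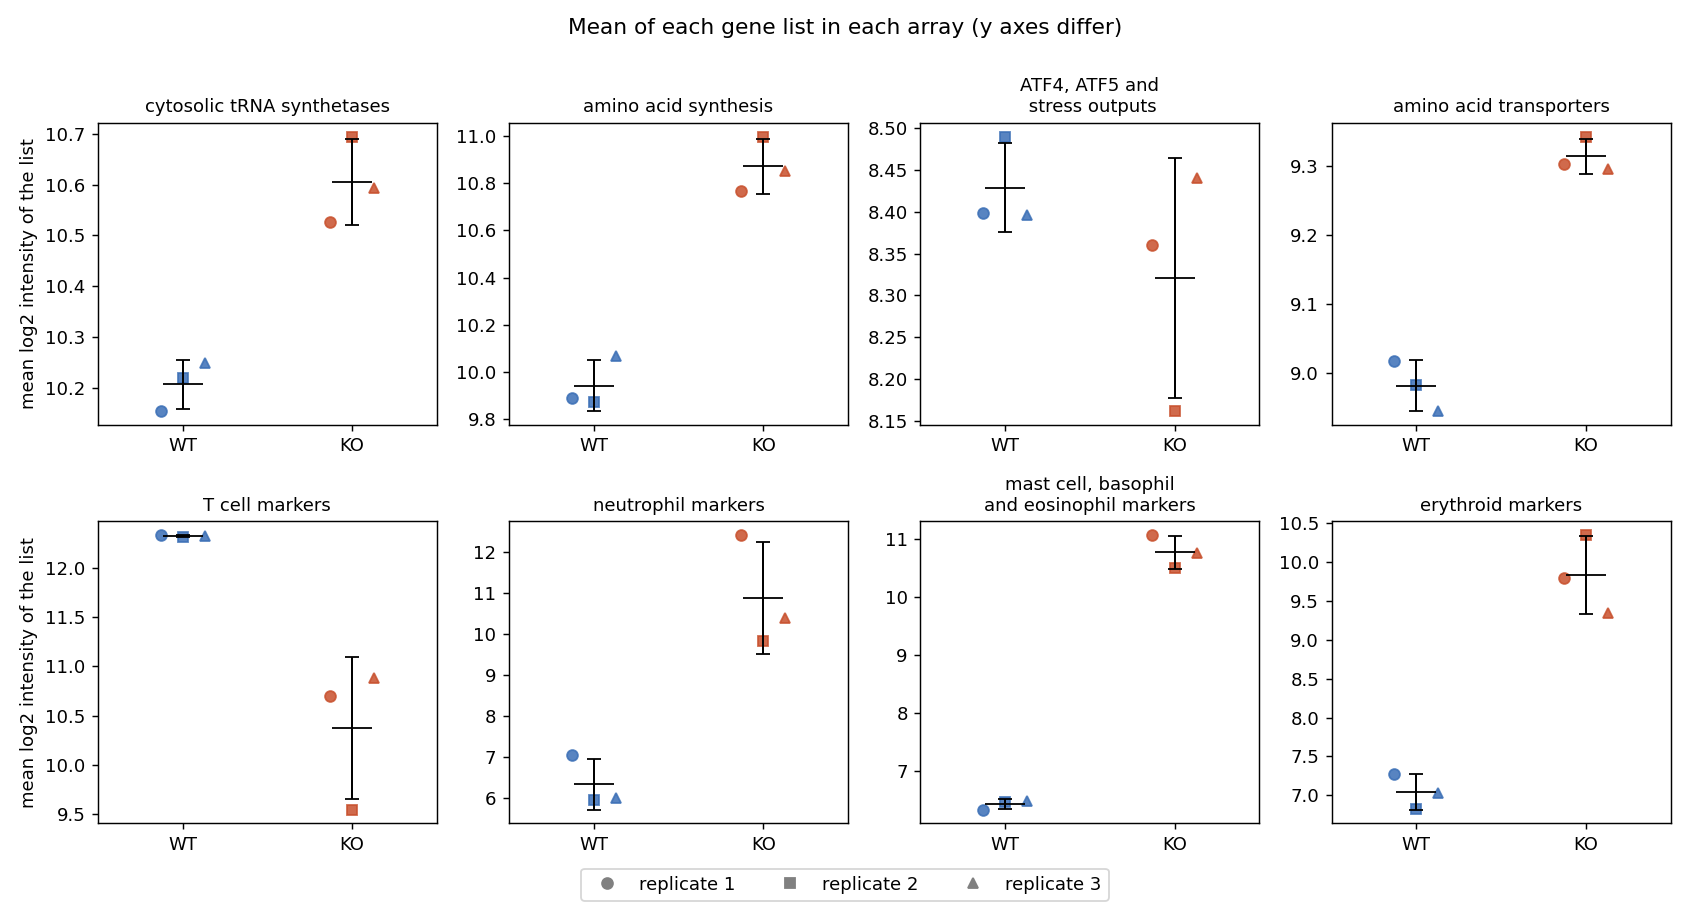
Mean log2 intensity over the genes of a list (y axis, a different range in each panel) in each WT and KO array (x axis), for the 4 roles of the amino acid response in the upper panels and 4 lists of cell type markers in the lower panels; symbols mark replicate numbers, bars the mean and whiskers 1 SD. Means of the synthetases run from 10.15 to 10.25 in WT and from 10.53 to 10.69 in KO, and those of the T cell markers from 12.31 to 12.33 and from 9.55 to 10.88.

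Other genes of the same pathways were read from lists written from general knowledge. The mitochondrial synthetases, which charge tRNAs inside mitochondria and are encoded apart from most cytosolic enzymes, were called about as often as genes at large: of 16 measured 3 rose and 4 fell, beside 18.6% of all genes each way, with a median difference of 0.22. The largest among them were Yars2, which rose by 0.67 ± 0.19 (SE, n = 3 per group), Lars2, which rose by 0.58 ± 0.13, and Wars2 and Ears2, which fell by 0.50 ± 0.12 and 0.48 ± 0.11 (limma adjusted p from 0.013 to 0.034). These counts moved when single arrays were left out: 1 rose without WT replicate 1 or 2, 1 fell without WT replicate 2 or 3, and 2 fell without KO replicate 1 or 3. Yars2 lost its call with any of WT replicates 1 and 2 and KO replicates 2 and 3 left out (limma adjusted p from 0.061 to 0.12). Lars2 was lost without WT replicate 1, and averaging its probe sets gave 0.21 (limma adjusted p = 0.17). Wars2 was lost when WT replicate 3 or either of KO replicates 1 and 3 was dropped, and Ears2 when KO replicate 3 or either of WT replicates 2 and 3 was. Under scaling to the hybridization controls 11 of the 16 rose and 0 fell, where 42.8% of all genes rose and 7.22% fell. Among 6 genes of the multisynthetase scaffold and tRNA export, Xpot, the exporter of tRNA from the nucleus, rose by 0.78 ± 0.11 (limma adjusted p = 0.0015). Tarsl2, a second threonyl-tRNA synthetase of the cytosol, rose by 1.64 ± 0.25 (limma adjusted p = 0.0024), which was 3.12-fold. The scaffold proteins Aimp1, Aimp2 and Eef1e1, named after their values were seen, were not called. Under scaling to the hybridization controls all 6 rose, beside 42.8% of all genes.

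Upstream of ATF4, 2 of 14 genes of eIF2, its kinases, its phosphatase and its exchange factor eIF2B rose and 0 fell by limma (median 0.17, with 5 higher and 1 lower at an unadjusted p below 0.05). This count of rises is no higher than the 18.6% of all genes that rose. They were the haem-regulated kinase Eif2ak1, by 0.77 ± 0.16 (SE, n = 3 per group, limma adjusted p = 0.0085), and the double-stranded RNA kinase Eif2ak2 (PKR), by 0.73 ± 0.18 (limma adjusted p = 0.02). Averaging the probe sets of Eif2ak1 gave 0.29 (limma adjusted p = 0.065), which ends its call. Eif2ak2 was not called without WT replicate 1, 2 or 3 or KO replicate 3. The list had 1 rise with WT replicate 1, WT replicate 2 or KO replicate 3 dropped, and 4 with KO replicate 1 dropped. Eif2ak4, which encodes GCN2 and was named after its values were seen, differed by 0.29 ± 0.11 (limma adjusted p = 0.084). Under scaling to the hybridization controls 11 of the 14 rose, beside 42.8% of all genes. Of 18 further ATF4 targets and partners 8 rose and 1 fell (median 0.46), beside 18.6% of all genes each way. Ppp1r15a, not called and named here for this reason only, is counted both in this list and in that of eIF2. Eif4ebp1, an inhibitor of cap-dependent translation, rose 3.59-fold, by 1.84 ± 0.16 (limma adjusted p = 0.00021). The bZIP factor Jdp2 rose by 1.55 ± 0.21, Ndrg1 by 1.54 ± 0.13 and the stress protein Nupr1 by 1.29 ± 0.27 (limma adjusted p from 0.00018 to 0.011). Averaging the probe sets of Jdp2 gave 0.70. The autophagy receptor Sqstm1, picked by its value, fell by 0.72 ± 0.08 (limma adjusted p = 0.00066).

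Of 17 further amino acid transporters 5 rose and 1 fell, beside 18.6% of all genes each way, with a median difference of -0.02. Under scaling to the hybridization controls 8 rose and 0 fell, beside 42.8% and 7.22% of all genes. Slc43a1 (LAT3), a uniporter of large neutral amino acids, rose 4.8-fold, by 2.26 ± 0.23 (SE, n = 3 per group, limma adjusted p = 0.00038). Slc16a10 (TAT1), a carrier of aromatic amino acids, rose 4.47-fold, by 2.16 ± 0.11 (limma adjusted p = 3.4e-05). Slc7a7 and Slc7a8, which pair with Slc3a2, rose by 1.60 ± 0.21 and 1.26 ± 0.28 (limma adjusted p = 0.012 for the latter, a call that needs WT replicate 1). The mean of Slc7a8 over the 6 arrays lay below the median level of 5.77. All 3 KO arrays were above all 3 WT arrays in each of these 4 genes, where the same held for 24.1% of all genes. The 4 were named for the size of their called differences, so this separation adds no further support. Slc43a2 (LAT4), picked by its value, fell by 0.75 ± 0.18, but not past the threshold when WT replicate 2 or 3 was dropped or under scaling to the hybridization controls. In the list of amino acid sensing by mTORC1 3 of 20 genes rose and 3 fell (median -0.06), beside 18.6% of all genes each way. Under scaling to the hybridization controls 8 rose and 2 fell. Sesn3, a sestrin that FoxO factors induce, fell by 1.28 ± 0.24 (limma adjusted p = 0.0064), and Nprl2, a subunit of the GATOR1 inhibitor of mTORC1, by 0.78 ± 0.10 (limma adjusted p = 0.00098). Of the TSC complex Tsc2 rose by 0.48 ± 0.12 and Tsc1 fell by 0.36 ± 0.08, which was 0.0074 under scaling to the hybridization controls. The Tsc2 call was lost without any single WT array (limma adjusted p from 0.0503 to 0.078) or KO replicate 1 (0.056). No gene of this list rose without WT replicate 1 or 2, and 1 did without KO replicate 3, while 2 fell without WT replicate 2.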

How the data were processed

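The authors deposited log2 probe-set intensities of Affymetrix 1-colour arrays that came from RMA (version not given), per the submitters' processing notes. Per the labels' protocols, RNA was amplified from oligo(dT) and random primers, and biotin was the label. RMA equalises the arrays, so a shift shared by most genes is removed, and the values carry no detection calls. Values were used as deposited. Of 45101 probe sets 64 were controls and 45037 were tested. The platform annotation supplied gave 1 gene for 34945 of them, several for 932, and did not list 9160. Each gene was read from its probe set with the highest mean of the 6 arrays, and suffixes _s_at and _x_at mark probe sets that can cross-hybridise.

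R 4.3.3 and limma 3.58.1 were used (lmFit, eBayes without trend, genotype as the term), and p values are two-sided and adjusted with Benjamini-Hochberg over all 45037 probe sets. The script was tested on simulated data. Rose and fell stand for an adjusted p below 0.05. The labels name individual spleens, so the 3 arrays of a genotype are separate mice, and their number limits the precision. Members, lists, tests and alternatives were chosen with earlier results of these data known. Every member may be named, and from each further list the 4 called genes with the largest differences; others are marked. The lists were the 4 member roles, 6 pathway lists and 6 marker lists. Alternatives were dropping genes below the median level of 5.77, quantile normalization once more, centring arrays on their medians, scaling to 18 hybridization control probe sets, limma's trend and robust options, array weights, a block for replicate numbers, a threshold of 0.10, averaging the probe sets of each gene, leaving out each array, and leaving out 2 pairs of arrays chosen after seeing the data. All 6 columns of values were used.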

Additional observations from a re-analysis of the deposited data

How the results depend on the processing

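Of the 21 rises among the members, 11 kept their call under all 17 alternatives tried (Aars, Eprs, Iars, Kars, Vars, Yars, Asns, Phgdh, Psat1, Shmt2 and Slc7a5), and none of the 4 falls did. Leaving out each array in turn gave 15 to 20 rises and 2 to 4 falls of members, a median difference of 0.34 to 0.41, and 4725 to 5963 rises and 4685 to 6387 falls of all probe sets. Dropping WT replicate 1 together with KO replicate 1 gave 13 rises and 0 falls of members, and 4028 rises and 3560 falls of all probe sets, with 2 arrays a group. Scaling to the hybridization controls gave 17309 rises and 2337 falls of all probe sets, 29 rises and 0 falls of members and a median difference of 0.74, since it moves every difference by the same amount. Signs turned for genes with no call: under that scaling Qars was 0.25, Psph 0.057 and Atf4 0.26, and Tsc1, which had fallen, was 0.0074. With probe sets averaged per gene Farsb was -0.047, Atf4 0.028 and Slc1a5 -0.078. Slc1a5 was also -0.034 with quantile normalization, -0.064 with array weights, -0.077 to 0.090 when each array was left out and -0.092 with WT replicate 1 and KO replicate 2 both left out. The replicate number as a block left 17 rises and 2 falls of members and 5296 rises and 5117 falls of all probe sets. Same-numbered arrays did not deviate together (correlations of 0.10, -0.24 and -0.20 for numbers 1, 2 and 3). With 3 arrays a genotype such correlations cannot decide whether the numbers pair the samples. Dim genes such as Slc7a11 are limited by their signal.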
